A study of Mus musculus with 6 samples.

Results

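Voltage-gated sodium and calcium channel genes were compared between the whole prefrontal cortex of 3 BTBR T+ Itpr3tf/J mice and that of 3 C57BL/6J mice, all untreated males aged 5 months. BTBR mice form an inbred line born without a corpus callosum, and they serve in autism research for their reduced social behaviour. C57BL/6J, a common laboratory inbred line, is labelled wild type. In the labels the BTBR genotype names the strain, yet the strain background given for those samples is C57BL/6J. Each mouse gave 1 one-colour Agilent array, hybridised with Cy3-labelled cRNA. Because the tissue was taken whole, fewer cells of a type and less RNA per cell cannot be told apart.

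The channel probes were chosen by name and by detection, without regard to strain. A probe counted when its gene name began with Cacna, Cacnb or Cacng, or with Scn followed by a digit and the letter a or b. It also had to be well above background, as the scanner software flags it, on at least 3 of the 6 arrays. By name there were 73 probes for 37 genes among the 41174 probes of the array that were not controls, and 63 probes for 33 genes met both conditions, out of 19545 gene names with a detected probe. Of these, 30 probes for 15 genes target pore subunits and 33 probes for 18 genes target auxiliary subunits. Scn10a and Scn11a, whose names have 2 digits, fall outside the name rule. All 63 were tested among the 30011 probes of the array that met the same detection rule.

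Voltage-gated channels open when the membrane depolarises. Sodium channels carry the rising phase of the action potential, and calcium channels turn depolarisation into calcium entry, which drives transmitter release, dendritic signals and gene expression. A single large α subunit forms the pore of each channel. In calcium channels, cytoplasmic β and extracellular α2δ subunits bring the pore to the membrane and tune its gating, and sodium channels carry small β subunits with an adhesion domain. The γ family is named for a subunit of the muscle calcium channel, but most of its brain members are TARPs, which are auxiliary proteins of AMPA-type glutamate receptors.

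Both probes that passed the test are shown first, with their places on the genome. Which transcripts of a gene each one reads was not determined. Positions are mm9, per the file headers, and letters run 5′ to 3′ on the probe's strand. The Cacng7 probe (A_51_P327675, chr7:3338624-3339037, plus strand) covers 414 bases of genome with its 60 bases. It therefore crosses a splice junction. Scn3a has 3 probes, and the one that passed the test (A_51_P398037) lies at chr2:65295675-65295734 on the minus strand. The first 30 of its 60 bases are printed.
Cacng7 A_51_P327675: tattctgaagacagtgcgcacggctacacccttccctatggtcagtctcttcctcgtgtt
Scn3a A_51_P398037: gagaaagaacacctctgaaagatacctttc
Sodium channel genes are close paralogs, so signals of their probes are uncertain as measures of 1 gene each.

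Each array had 68.2% to 74.5% of its probes well above background, and precision is limited by the 6 arrays. Values below are log2 signals relative to each array's 75th percentile, so 0 is the percentile itself, and a probe's signal is not comparable with that of another probe. The arrays lay on 2 slides, with mice 1 and 2 of each strain on slide 1 and mouse 3 of each strain on slide 2. C57BL/6J 3 and BTBR 2 stood apart in markers of striatal projection neurons, a cell type outside the cortex. The median deviation of 11 such markers from their 6-mouse mean was -0.99, 0.61 and -1.39 in BTBR 1 to 3, against -0.79, -0.19 and 2.46 in C57BL/6J 1 to 3. All 6 arrays detected the 6 markers of excitatory cortical neurons, whose median deviation was -0.67 in C57BL/6J 3 and between -0.21 and 0.25 in the other 5 mice. Marker genes were read by their brightest probe, and over all 19545 gene names 5.51% of brightest probes passed the limma test (adjusted p under 0.05). Mature oligodendrocyte markers were lower in BTBR for 2 of 7 genes (Mag and Opalin), with a median deviation of -0.26, -0.43 and -0.23 in BTBR, against 0.12, 0.56 and 0.28 in C57BL/6J. Of 6 astrocyte markers 1 was lower (Gfap, -1.21, its other probes -0.57 and -0.46), and of 6 microglial markers 1 was higher (Cx3cr1, 1.22, its other probe 0.23). Normexp background correction ended these 4 calls (adjusted p of 0.281 for Mag, 0.155 for Opalin, 0.132 for Gfap and 0.0616 for Cx3cr1). By the limma test 0 passed among 7 interneuron, 6 thalamic and 6 vascular markers.

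Of 63 channel probes, 2 differed between the strains, 1 higher and 1 lower in BTBR (limma, Benjamini-Hochberg adjusted p under 0.05). Of all 30011 probes 5.44% differed, 2.19% higher and 3.25% lower. The count of 2 is near that share, and a difference between the shares was not tested. The probe that rose reads Cacng7 and the probe that fell is 1 of the 3 for Scn3a. That Scn3a probe met the detection rule through C57BL/6J alone, and without it 1 of 62 channel probes differed. An unadjusted p under 0.05 was reached by 7 of 63 channel probes, against 16.8% of all probes. No overlap between strains was seen for 6 channel probes, 9.52% of them, whereas it was seen for 22.8% of all probes. Without the Scn3a probe that fell, no overlap was seen for 5 of 62 (8.06%). The median absolute log2 difference of the channel probes, 0.18, was close to the 0.17 of all probes. Without C57BL/6J 3, which also lay far from the other C57BL/6J mice for many channel probes, 5 channel probes differed (4 higher, 1 lower), against 4.64% of all probes. They were the probes for Cacng7 and Cacna2d4, 1 for Cacna2d2 and 2 for Scn3a, the probe that entered through C57BL/6J alone among them. Without both C57BL/6J 3 and BTBR 2, a setting chosen after seeing the data, the same 5 differed, against 3.36% of all probes. With normexp background correction limma called 0 of 63 channel probes (3 at an unadjusted p under 0.05), when it called 0.566% of all probes. The authors' matrix values kept 1 call against 5.48%, detection on all 6 arrays 1 against 4.94%, and the brightest probe of each gene 1 against 5.54%.

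**Figure D1:**
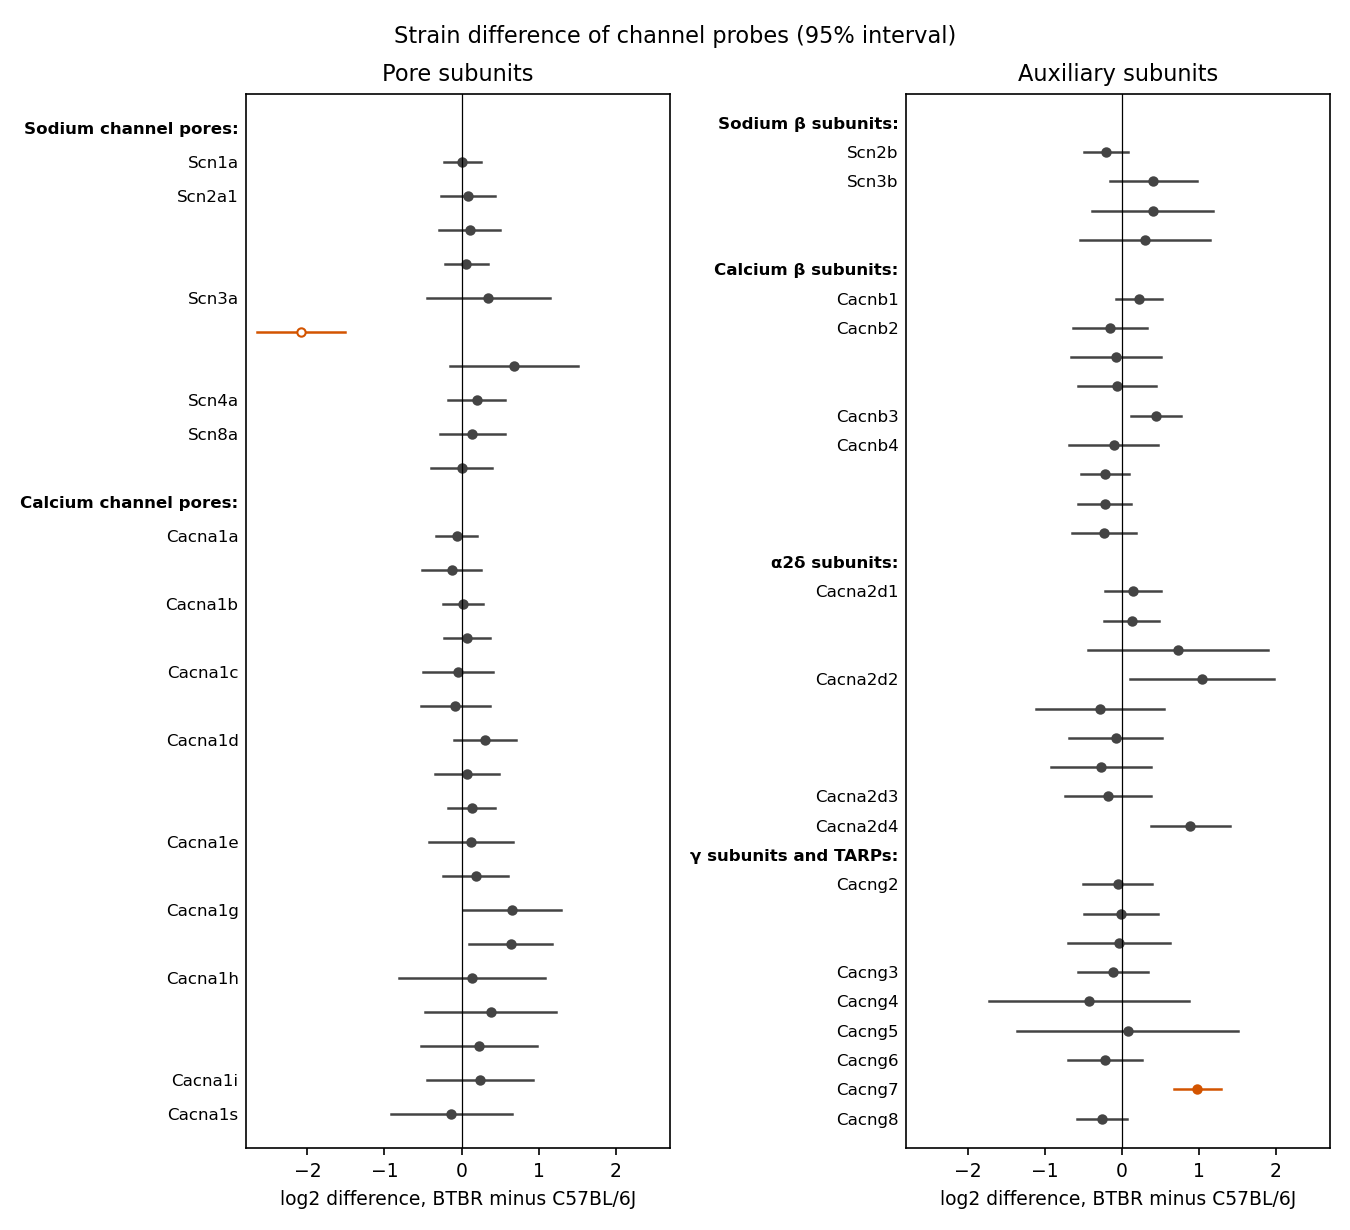
Log2 difference of 59 of the 63 channel probes, BTBR minus C57BL/6J, with its 95% interval from limma (3 mice per strain). Each row is 1 probe, and rows below a gene name without a name of their own are further probes of that gene. Orange marks the 2 probes that passed the test, Cacng7 at 0.98 and, as an open circle, 1 of 3 Scn3a probes. That probe was not well above background on any BTBR array and entered through C57BL/6J alone, so its fitted place is no measured size. The dimmest measurable BTBR signals give only an untested bound, a signal at least 1.77-fold lower in BTBR.

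Cacng7 encodes γ-7, a type II TARP of AMPA receptors. Its probe read -0.07, -0.15 and -0.06 in BTBR 1 to 3, against -1.17, -1.20 and -0.86 in C57BL/6J 1 to 3. The strains did not overlap, and the BTBR values spanned 0.09. The mean was -0.09 ± 0.05 in BTBR and -1.08 ± 0.19 in C57BL/6J (SD, n = 3 each), a 1.97-fold rise (log2 difference 0.98 ± 0.13 SE, limma adjusted p = 0.00794). The difference was 1.07 on slide 1 and 0.80 on slide 2. It remained past the test in 18 of 19 alternatives, those that dropped a single mouse included (adjusted p of 0.00673 to 0.0489), and lost the call with normexp background correction (log2 difference 0.86, adjusted p = 0.105). Cacng7 has this 1 probe, so whether BTBR carries a sequence variant there or more RNA cannot be told apart.

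The genes that RefSeq places next to Cacng7 on chromosome 7, Cacng8 and then Cacng6, did not pass the test. Cacng8, a type I TARP abundant in forebrain synapses, read -3.25, -3.43 and -3.58 in BTBR, against -3.20, -3.30 and -3.01 in C57BL/6J. The values overlapped and the log2 difference of -0.25 had a 95% interval from -0.58 to 0.07. For Cacng6, a γ subunit known from muscle, the difference was -0.22 with an interval from -0.69 to 0.26. Both intervals lie below the interval of Cacng7, 0.67 to 1.29, and no test of the difference between the genes was made.

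Cacng2 and Cacng3, further type I TARPs, did not pass the test. Cacng2 encodes stargazin, the founding member of the family, and its 3 probes differed by -0.05, -0.04 and -0.01 (lowest interval bound -0.70, highest 0.62). Its brightest probe read 0.46, 0.21 and 0.84 in BTBR, against 0.88, 0.75 and 0.01 in C57BL/6J, so the strains overlapped. Cacng3 read 1.85, 1.39 and 1.91 in BTBR, against 1.76, 2.08 and 1.65 in C57BL/6J (difference -0.12, interval -0.57 to 0.34). Among the AMPA receptor subunits and accessory proteins with which TARPs work, 10 of 11 listed genes were measured. By their brightest probe 0 passed the limma test in either direction, when 5.51% of all brightest probes did. Their median difference was 0.01, and the nearest to passing was the AMPA receptor subunit gene Gria4 (0.27 ± 0.13 SE, limma adjusted p = 0.384). None had an unadjusted p under 0.05, against 16.7% of all brightest probes, so 10 genes are too few to set this list apart.

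Scn3a encodes a neuronal sodium channel pore that is most active before birth, and its probes disagreed. Probe A_51_P398037 read -7.46, -7.48 and -8.01 in BTBR, against -5.93, -5.57 and -5.21 in C57BL/6J. It was well above background on the 3 C57BL/6J arrays and not well above background on any BTBR array. It met the detection rule through C57BL/6J alone, so a difference was built into its selection. A floor was set at the dimmest measurable signal of each BTBR array (-6.42, -5.83 and -6.92). Where the signal of this probe was higher, it was used instead. Against that floor, the C57BL/6J mean of -5.57 ± 0.36 gives a signal at least 1.77-fold lower in BTBR. This bound was not tested, and it depends on the floor, the lowest signal flagged well above background. The measured BTBR mean was -7.65 ± 0.31 (SD, n = 3 each). The limma adjusted p of 0.00438 belongs to the full fitted difference, which includes BTBR values not well above background. Given the selection of this probe, it lends the difference no support. The call was lost with normexp (log2 difference -0.65, adjusted p = 0.962) and with the authors' matrix values (-0.15, adjusted p = 0.168).

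The other Scn3a probes pointed the opposite way without passing the test. Probe A_52_P210781 read -1.70, -1.48 and -1.83 in BTBR, against -2.86, -2.66 and -1.53 in C57BL/6J. C57BL/6J 3 lay inside the BTBR range and the other C57BL/6J mice below it. The difference was 0.68 ± 0.35 SE (adjusted p = 0.408), 1.17 on slide 1 and -0.30 on slide 2. With C57BL/6J 3 left out, Scn3a A_52_P210781 differed by 1.09 and passed the test (adjusted p = 0.0218), as it did with BTBR 2 left out too (adjusted p = 0.0409). The remaining probe, A_51_P148176, differed by 0.35 (interval -0.45 to 1.15), with 0.92 on slide 1 and -0.80 on slide 2. The probes of Scn3a thus gave no single direction.

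**Figure D2:**
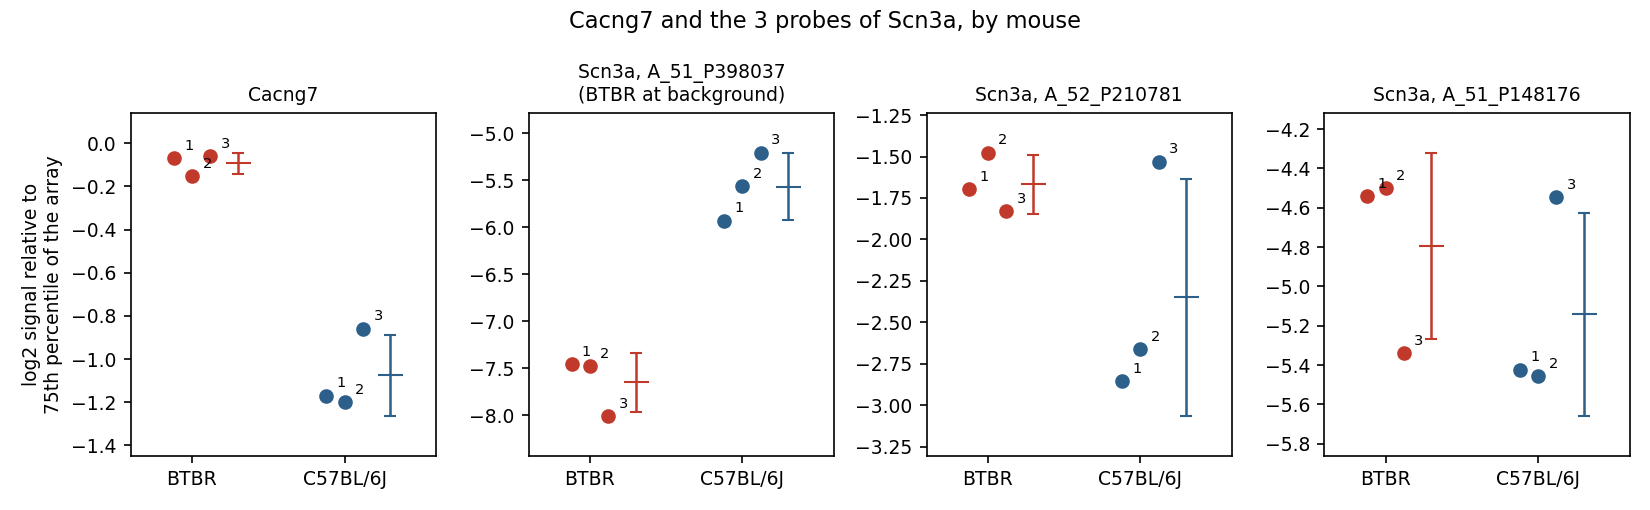
Log2 signal relative to the array's 75th percentile for Cacng7 and the 3 Scn3a probes in each of 3 BTBR and 3 C57BL/6J mice, numbered by replicate, with mean ± SD beside the points. Cacng7 and probe A_51_P398037 show no overlap between strains, in opposite directions, while C57BL/6J 3 lies within or at the BTBR range for the other Scn3a probes.

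The main sodium channel pores of the adult brain did not pass the test. Scn1a, the pore on which fast-spiking interneurons depend, read 1.16, 1.22 and 1.29 in BTBR, against 1.22, 1.14 and 1.27 in C57BL/6J. The ranges coincided, and the log2 difference of 0.01 had a 95% interval from -0.23 to 0.25. For Scn2a1, now named Scn2a and the main pore of excitatory neurons, the brightest probe read 4.05, 4.16 and 4.04 in BTBR, against 4.18, 3.90 and 3.99 in C57BL/6J. Its 3 probes differed by 0.06 to 0.10, and the interval of the brightest ran from -0.22 to 0.34.

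Scn8a, the pore concentrated at axon initial segments and nodes, read 5.53, 5.44 and 5.56 by its brightest probe in BTBR, against 5.79, 5.54 and 5.20 in C57BL/6J. That probe's interval ran from -0.40 to 0.40, and the second probe differed by 0.14. Scn4a, the skeletal muscle pore, differed by 0.19 (interval -0.17 to 0.56). Of the 12 probes for sodium channel pores, 10 had a positive difference, against 17152 of all 30011 probes. The median of the 12 was 0.12, with 0.19 on slide 1 and -0.16 on slide 2, against a median of 0.04 over all probes. None of those 10 passed the test.

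Among calcium channel pores the T-type gene Cacna1g stood highest in difference, but it did not pass the test. T-type channels open near rest and shape rhythmic firing. Probe A_51_P466910 read 1.49, 1.49 and 1.28 in BTBR, against 1.24, 0.87 and 0.19 in C57BL/6J. Probe A_52_P611610 read -0.22, -0.60 and -0.10 in BTBR, against -0.75, -0.71 and -1.36 in C57BL/6J. Neither probe's strains overlapped, and C57BL/6J 3 was lowest by both. The differences were 0.65 ± 0.27 and 0.64 ± 0.22 SE (limma adjusted p = 0.29 and 0.21), positive on both slides, and without C57BL/6J 3 Cacna1g A_51_P466910 differed by 0.36 (adjusted p = 0.317) and Cacna1g A_52_P611610 by 0.43 (adjusted p = 0.286). The other T-type genes overlapped between strains. Cacna1h differed by 0.14 to 0.38 over its 3 probes and Cacna1i by 0.24 (interval -0.45 to 0.93). The brightest Cacna1h probe read 0.17, 0.35 and -0.03 in BTBR, against -0.57, -0.31 and 0.97 in C57BL/6J, so C57BL/6J 3 lay above every other mouse.

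Pores of the presynaptic calcium channels did not pass the test. Cacna1a, the P/Q-type pore, read -2.20, -2.37 and -2.05 in BTBR, against -2.18, -1.81 and -2.24 in C57BL/6J by its brightest probe. Its probes differed by -0.13 and -0.06, with bounds between -0.51 and 0.25. Cacna1b, the N-type pore, read 1.16, 1.27 and 1.19 in BTBR, against 1.34, 1.07 and 0.995 in C57BL/6J, and its probes differed by 0.02 and 0.07. The R-type pore gene Cacna1e read -4.41, -4.52 and -4.48 in BTBR, against -4.84, -4.86 and -4.06 in C57BL/6J, a difference of 0.12 (interval -0.43 to 0.66). In each of these genes the strains overlapped.

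The L-type pores, which couple activity to transcription in neurons, did not pass the test either. Cacna1c read -1.15, -1.10 and -1.21 in BTBR, against -1.42, -1.19 and -0.71 in C57BL/6J, and its probes differed by -0.05 and -0.08. Cacna1d read -1.21, -1.21 and -1.58 in BTBR, against -1.15, -1.47 and -1.62 in C57BL/6J by its brightest probe. Its 3 probes differed by 0.08, 0.13 and 0.31. Cacna1s, the L-type pore of skeletal muscle, differed by -0.13 (interval -0.92 to 0.65). Of 11 skeletal muscle markers measured, 1 was higher by the same test, the myosin light chain gene Myl1 (log2 difference 3.38, limma adjusted p = 0.00268, and 0.0828 with normexp), against 5.51% of brightest probes over all genes.

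Among β subunits of calcium channels, Cacnb3 came nearest to a difference. It encodes a β subunit found with N-type and L-type channels in neurons. It read 4.02, 3.75 and 4.02 in BTBR, against 3.34, 3.64 and 3.49 in C57BL/6J, and the strains did not overlap. The difference was 0.44 ± 0.14 SE, 0.40 on slide 1 and 0.53 on slide 2, and did not pass the test (adjusted p = 0.153). Cacnb4, whose loss gives the lethargic mouse its seizures and ataxia, had lower means in BTBR by all 4 probes, with differences from -0.23 to -0.11. Its brightest probe read 3.27, 3.34 and 3.55 in BTBR, against 3.94, 3.53 and 3.38 in C57BL/6J, and all 4 were positive on slide 2. Cacnb1 differed by 0.22 (interval -0.07 to 0.52), and the 3 probes of Cacnb2 by -0.15 to -0.06.

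The α2δ subunits held 2 of the 3 largest positive differences among the channel probes. Cacna2d4, best known from the retina, read -4.97, -4.57 and -4.89 in BTBR, against -5.93, -5.90 and -5.27 in C57BL/6J. The strains did not overlap, and the difference was 0.89 ± 0.21 SE (adjusted p = 0.0748). Without C57BL/6J 3 it was 1.10 and passed the test (adjusted p = 0.0231), whereas with normexp it was -0.13 (adjusted p = 0.969). Its direction therefore depended on the background correction. With normexp the 10 channel probes not entered all had negative differences, from -0.70 to -0.28. Some were positive in the main values, such as Scn7a (0.45, and -0.42 with normexp). A negative sign with normexp is thus not particular to Cacna2d4.

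Cacna2d2, mutated in the ducky mouse, gave 4 probes that disagreed. Probe A_51_P171711 read -2.87, -3.04 and -2.73 in BTBR, against -4.54, -4.23 and -3.00 in C57BL/6J, a difference of 1.04 ± 0.39 SE (adjusted p = 0.243). Without C57BL/6J 3 that probe differed by 1.51 and passed the test (adjusted p = 0.00912). The remaining Cacna2d2 probes differed by -0.29 to -0.07. By the brightest of them the levels were -0.56, -0.54 and -0.71 in BTBR, against -0.71, -0.61 and 0.29 in C57BL/6J. Cacna2d1 read 2.59, 2.80 and 2.53 in BTBR, against 2.72, 2.48 and 2.28 in C57BL/6J (difference 0.15, interval -0.21 to 0.51). Cacna2d3 read 2.89, 3.06 and 3.48 in BTBR, against 3.26, 3.01 and 3.70 in C57BL/6J (difference -0.18, interval -0.73 to 0.38).

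The β subunits of sodium channels, which also act as adhesion molecules, did not pass the test. Scn3b had higher means in BTBR by all 3 probes, with differences of 0.31 to 0.41. Its brightest probe read 3.74, 3.95 and 3.38 in BTBR, against 3.09, 3.03 and 3.72 in C57BL/6J. On slide 1 the Scn3b probes differed by 0.79 to 0.94 and on slide 2 by -0.83 to -0.34, so the direction was not the same on both slides. Scn2b read 4.96, 5.05 and 5.22 in BTBR, against 5.37, 5.18 and 5.29 in C57BL/6J (difference -0.20, interval -0.49 to 0.08).

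Set side by side, pore and auxiliary probes had medians of opposite sign, both small. The median log2 difference was 0.12 over 30 pore probes and -0.06 over 33 auxiliary probes, against 0.04 over all probes. Positive differences numbered 23 of 30 for pores and 12 of 33 for auxiliary subunits, against 17152 of all 30011 probes. Probes of 1 gene are not independent, and these counts were not tested. The 1 call among auxiliary subunits, Cacng7, was higher. The 1 call among pores was the lower Scn3a probe that met the detection rule through C57BL/6J alone. Given that selection, it lends a difference between the classes no support. The split by class did not hold within slides. The pore median was 0.24 on slide 1 and -0.05 on slide 2, and the auxiliary median was 0.10 on slide 1 and 0.08 on slide 2. Per mouse, the median deviation of pore probes was 0.11, 0.09 and -0.05 in BTBR, against -0.16, -0.09 and 0.05 in C57BL/6J, so mouse 3 of each strain lay on the other strain's side. For auxiliary probes it was 0.01, -0.02 and 0.04 in BTBR, against 0.00, -0.09 and -0.01 in C57BL/6J. With normexp the pore median was -0.11, while every channel probe not entered was lower in BTBR as well. Without C57BL/6J 3 the auxiliary median was 0.05, and without BTBR 2 it was 0.04.

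**Figure D3:**
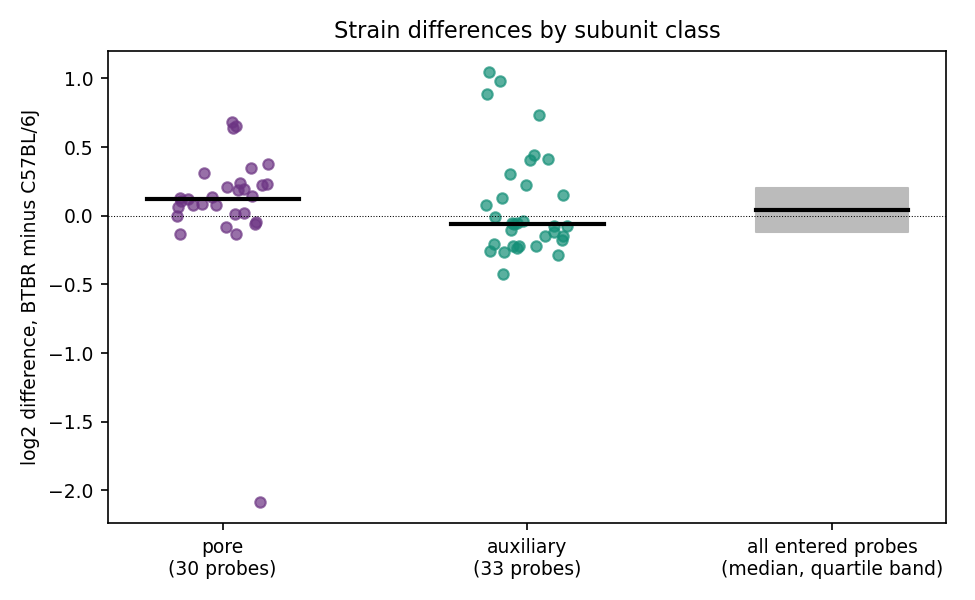
Log2 difference, BTBR minus C57BL/6J, of 30 pore and 33 auxiliary channel probes (points, spread sideways at random, with a black line at the median), beside the median and quartile band of all 30011 probes. The class medians, 0.12 and -0.06, lie within the quartiles of all probes, -0.12 to 0.20. The lowest pore point is the Scn3a probe not well above background on any BTBR array. For it the dimmest measurable BTBR signals give only an untested bound, a signal at least 1.77-fold lower in BTBR.

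The channel probes varied among mice of 1 strain more than probes in general. The wider of both strains' ranges exceeded 1 on the log2 scale for 17 of 63 channel probes (27.0%), against 13.3% of all probes, and its median was 0.65 against 0.46. In 16 of the 17 the C57BL/6J range exceeded 1, and in 14 of those 16 C57BL/6J 3 was the highest of its strain. Cacng5, a type II TARP like Cacng7, read -1.52, -0.14 and -1.70 in BTBR, against -1.87, -1.64 and -0.08 in C57BL/6J. C57BL/6J 3 and BTBR 2 thus stood above the other 4 mice, and both had the highest striatal marker scores of the 6 mice. The difference between strains was 0.08, with an interval from -1.35 to 1.51, and 0.63 without C57BL/6J 3 (adjusted p = 0.575).

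The muscle pore gene Cacna1s showed the same mice on top. It read -1.80, -1.14 and -1.89 in BTBR, against -1.84, -1.74 and -0.84 in C57BL/6J. Cacng4, a TARP found in glia and in early development, read -2.67, -2.32 and -3.17 in BTBR, against -3.07, -2.77 and -1.06 in C57BL/6J. The 5 oligodendrocyte precursor markers had a median deviation of 0.09, -0.04 and -0.12 in BTBR, against -0.08, 0.05 and 0.13 in C57BL/6J. The part of the striatal or precursor markers in these values was not tested.

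**Figure D4:**
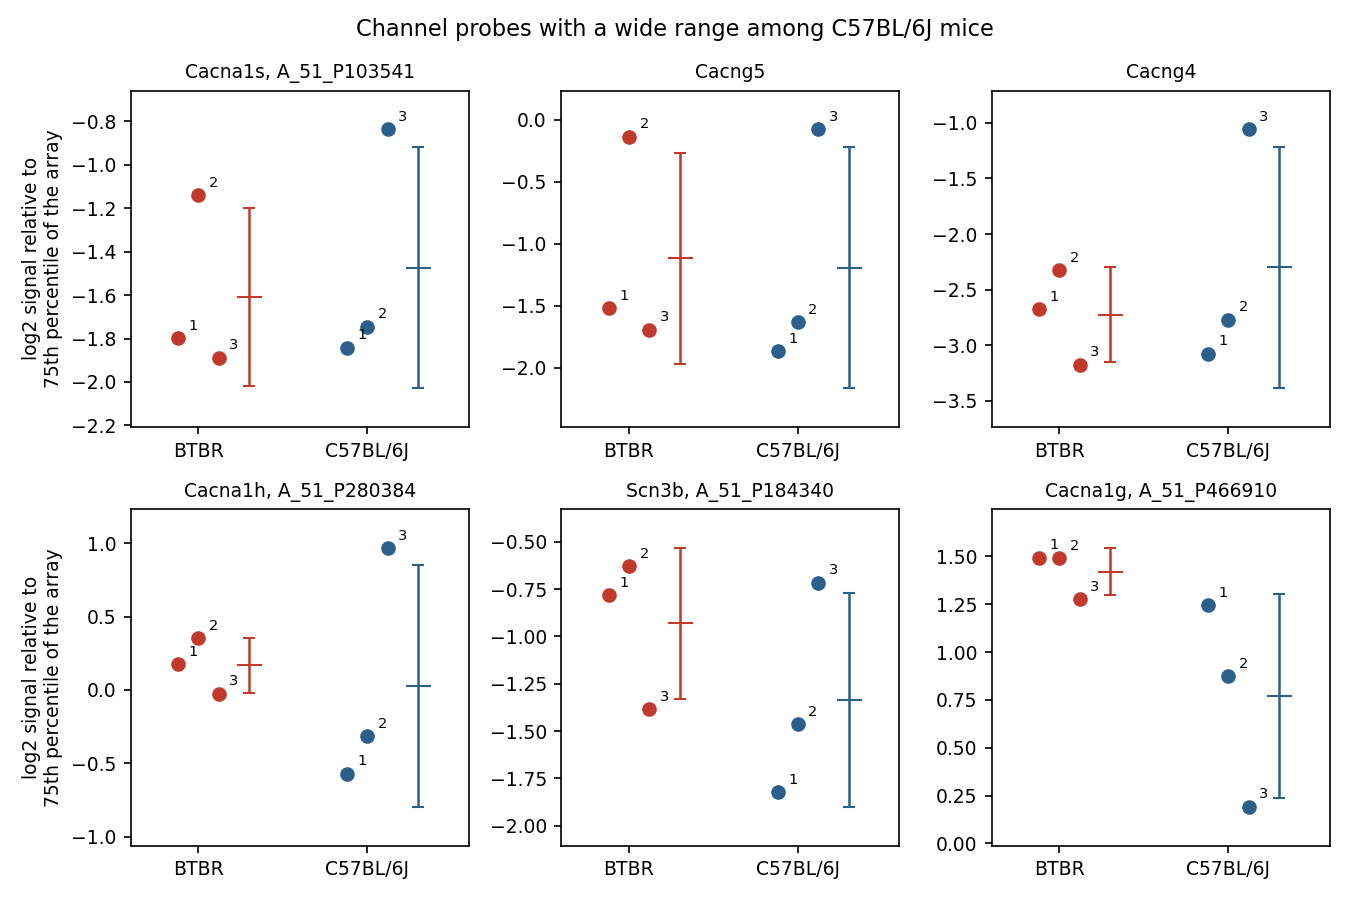
Log2 signal relative to the array's 75th percentile for 6 channel probes with a C57BL/6J range above 1, in 3 BTBR and 3 C57BL/6J mice numbered by replicate, with mean ± SD beside the points. C57BL/6J 3 is the highest C57BL/6J mouse in 5 panels and the lowest for Cacna1g, and BTBR 2 is the highest BTBR mouse for Cacna1s, Cacng5, Cacng4, Cacna1h and Scn3b.

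Slides gave differences of the same sign for 23 of 63 channel probes (36.5%), against 51.2% of all probes. Mouse 3 of each strain made up slide 2, so slide 2 has no replicate and C57BL/6J 3 and slide cannot be told apart there. On slide 1 alone, with 2 mice per strain, 9 channel probes passed the test (8 higher, 1 lower), against 1797 of all 30011 (5.99%).

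Several probes of 1 gene mostly pointed one way. Of 18 channel genes with more than 1 probe, 15 had all differences of 1 sign, 9 positive and 6 negative, and the exceptions were Scn3a, Cacna2d2 and Scn8a. The share over all genes with several probes was not computed. Probes of 1 gene are read on the same mice, so a shared sign does not settle the strain direction. The Scn3b probes and the Cacnb4 probes each changed sign together between slides. The 95% interval lay wholly within a 1.5-fold change for 26 of 63 channel probes (41.3%), against 50.5% of all probes. Of the other 37, 35 had an interval that included a 1.5-fold difference in at least 1 direction. The intervals of the 2 called probes lay wholly beyond it. That of the Scn3a probe rests on BTBR values not well above background, so it is no measured size.

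The 10 probes named for channel genes but not entered were well above background on at most 2 arrays. Just inside the rule were the Scn3a probe above (3 arrays) and the Cacna2d1 probe A_52_P94721 (5 arrays), which read -5.93, -4.62 and -6.18 in BTBR, against -5.77, -7.00 and -6.16 in C57BL/6J. Just outside it were Cacna1e probe A_52_P360292 (2 arrays, both C57BL/6J), a Cacna1s probe (1 BTBR array) and the probe of Cacng1 (1 C57BL/6J array). The Cacng1 probe, for the muscle γ subunit, read -7.31, -7.77 and -8.75 in BTBR, against -7.57, -6.61 and -4.60 in C57BL/6J. The other 7 were above background on 0 arrays. They were the probes of Cacna1f, Scn7a and Scn9a and further probes of Cacna1d, Cacna1h, Cacng2 and Scn1a. Cacna1f, Scn7a, Scn9a and Cacng1 thus had no measured probe, which says only that they were not detectable here.

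Among genes that act on these channels, 2 of 19 measured calcium channel partners rose and 0 fell by their brightest probe, when 5.51% of all brightest probes passed the test. An unadjusted p under 0.05 was reached by 3 of the 19, against 16.7% of all brightest probes. Their median difference was 0.12. Rem1, a small GTPase of the family that inhibits calcium channels through β subunits, read -5.35, -5.37 and -5.63 in BTBR, against -6.40, -6.59 and -6.31 in C57BL/6J. The strains did not overlap and the rise was 1.98-fold (0.98 ± 0.13 SE, limma adjusted p = 0.00945). These C57BL/6J values lie near the dimmest measurable signals of their arrays (-6.59, -6.67 and -6.91), which limits the precision of that fold. Calm3, which encodes calmodulin, the calcium sensor bound to the channel's tail, read 5.41, 5.13 and 5.38 in BTBR, against 4.45, 4.68 and 4.45 in C57BL/6J, a 1.71-fold rise (adjusted p = 0.0215). Its other probes differed by 0.37 and 1.16. Normexp ended both calls (adjusted p = 0.965 for Rem1 and 0.233 for Calm3). The calcium sensor gene Ncs1 (0.38, adjusted p = 0.161) and Kcnip3 (-0.38, adjusted p = 0.446) had the next smallest p. A dimmer probe of the vesicle calcium sensor gene Syt1 was lower (-0.93, adjusted p = 0.00322), while its other probes differed by -0.48 to 0.31.

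Of 13 genes for sodium channel partners at the axon initial segment, 13 were measured and 0 passed the limma test (5.51% of all brightest probes did), 3 of them with an unadjusted p under 0.05 (16.7% of all). Among these was the channel-binding factor Fgf14 (-0.32, adjusted p = 0.165, its other probes -0.01 and 0.27). Another was the channel-binding factor Fgf11 (0.64, adjusted p = 0.197, its other probe -0.37). S100a10 followed (-0.24, adjusted p = 0.497). Of 10 genes for other sodium or calcium permeable channels and their partners, 0 passed by their brightest probe and 1 had an unadjusted p under 0.05, beside the same 5.51% and 16.7%. Unc80, a subunit of the sodium leak channel, was nearest (0.69 ± 0.17 SE, adjusted p = 0.0848), and 1 of its dimmer probes passed (1.19, adjusted p = 0.0128, and 0.962 with normexp). Hcn3 (0.43), Tpcn1 (-0.24, its other probes -0.02 and 0.31) and Hcn2 (-0.28) followed, with adjusted p from 0.335 to 0.584.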

How the data were processed

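Agilent one-colour mouse arrays were read with Feature Extraction, version 10.7.3.1 in the file headers and 9.1 in the submitters' processing notes. The deposited intensity is the software's background-corrected processed signal of each spot, per the file headers. The authors' deposited matrix holds log2 values of the same arrays, with medians of 8.82 to 8.83, and the sources used here do not give their centring. Control and outlier-flagged spots were left out, log2 signals were scaled to each array's 75th percentile, and probes well above background on at least 3 of 6 arrays were fitted for strain in limma 3.58.1 (R 4.3.3) with Benjamini-Hochberg adjustment at 0.05. The fit was checked on simulated data.

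Per-mouse values are given for every gene with a called probe and for the main brain pores and auxiliary subunits by their brightest probe, with up to 4 genes of smallest p in each partner list. Cacna2d4, Cacng4, Cacng5, Cacna1s, the Cacna2d1, Cacna2d2 and Cacna1g probes beside the brightest, and the dimmer Syt1 and Unc80 probes were singled out after their values were seen. Some channel and partner probes, and some sequences, are counted in the totals where they apply but not reported here. The members and lists were chosen with earlier results of these data known. Alternatives changed background correction, scaling, filter, probe choice, prior, slide and replicate blocks, and mice kept. Gene names are the files', updated through RefSeq (GRCm38.p6), where 56 of 63 channel probes matched by accession. Nothing in the labels says that samples came from separate litters or batches, and p-values measure the spread between these samples.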

Additional observations from a re-analysis of the deposited data

How the results depend on the processing

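Of 1165 values of single channel probes under alternatives, 1149 kept their side of the threshold, 13 passed it only under the alternative and 3 lost the call. Of the 1149, 1047 kept their direction and 102, none of them called, changed sign (19 with normexp, 11 on slide 1 alone). Over all probes, 1632 differed in the main test, 170 with normexp, 1083 with the brightest probe of each gene, 922 with the replicate number as a block, 1008 without C57BL/6J 3 and BTBR 2, and 858 to 1472 without 1 mouse. On slide 1 alone 900 were higher and 897 lower, against 657 and 975. Of the channel probes, 2 differed in the main test. With normexp limma called 0 (3 at an unadjusted p under 0.05), with detection on all 6 arrays 1, with the brightest probe 1, with the authors' matrix 1, on slide 1 alone 9, without C57BL/6J 3 and BTBR 2 5, and without 1 mouse 2 to 5. The replicate block gave 2, though same-numbered mice did not deviate together (r of 0.03, -0.17 and -0.08), so the numbers do not pair the samples. The pore median, 0.12, was -0.11 with normexp, 0.24 on slide 1 alone and 0.03 to 0.18 without 1 mouse. With normexp the channel probes not entered also had negative differences, from -0.70 to -0.28. The auxiliary median, -0.06, was -0.13 with the brightest probe, 0.10 on slide 1 alone, 0.0061 without C57BL/6J 3 and BTBR 2, and -0.114 to 0.0514 without 1 mouse. The detection and brightest-probe settings test fewer probes, which removes the dim Scn3a probe. The cause of the other changes was not tested. Dim probes such as those of Cacna2d4, Cacna1i and Cacng6 lie near the lowest measurable signal, which limits their precision.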

Other observations

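Scn11a, a sodium channel pore known from sensory neurons, has a name outside the rule for the channel probes and 1 probe on the array (mm9 chromosome 9). It read -5.35, -5.58 and -6.25 in BTBR, against -8.49, -8.85 and -7.27 in C57BL/6J. The probe was well above background on the 3 BTBR arrays and on 0 C57BL/6J arrays, so its detection rested on BTBR alone. The C57BL/6J values lay below the dimmest measurable signals of their arrays (-6.59, -6.67 and -6.91). Given this selection, the limma adjusted p of 0.0264 lends the difference no support. With normexp the log2 difference of Scn11a was -0.10. The 2 probes of Scn10a, another sensory neuron pore, differed by -0.21 and -0.05 without passing the test.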
